A study of Mus musculus with 94 samples.

Results

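The genes described here make 2 groups of basophil mediators, histamine and the eicosanoids. The 10 genes were taken by name from the deposited count table, which lists 46078 mouse genes, and all 10 were found there. They are Hdc and Slc18a2 for histamine synthesis and storage, Pla2g4a for the release of arachidonic acid, Alox5, Alox5ap and Ltc4s for leukotrienes, Alox15 for the 12/15-lipoxygenase branch, and Ptgs1, Ptgs2 and Hpgds for prostaglandins. RNA was sequenced from 94 single basophils sorted out of C57BL/6 bone marrow (females), 47 through a CD34-negative and 47 through a CD34-positive gate. Both gates held live cells negative for lineage markers and Sca1 and positive for the IgE receptor FcεRI, and CD34 was the marker that set them apart. The design names 3 mice, and the age is not given in the sources used here. The labels do not tie cells to mice, so each gate is 1 sample, no test was run, and no difference between gates has a replicate check.

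Histamine is made from histidine by histidine decarboxylase, the product of Hdc, and is packed into granules by the vesicular monoamine transporter VMAT2, the product of Slc18a2. Eicosanoids are made on demand: cytosolic phospholipase A2 (Pla2g4a) frees arachidonic acid from membranes, and lipoxygenases or cyclooxygenases oxidise it. Basophils are known for storing histamine and for releasing leukotriene C4 on activation through the IgE receptor.

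After 1 poorly sequenced cell was left out of each gate, 46 cells per gate were kept, which sum to 33444417 gene reads for CD34-negative and 30031728 for CD34-positive cells. Gene reads per kept cell ranged from 262944 to 1154738. CPM stands for reads of a gene divided by all gene reads of the cell or gate, times 1000000. Cd34, the gene of the sort, had 7 reads in all CD34-negative cells and 1799 in all CD34-positive cells. All 9 basophil marker genes had reads in both gates, and their summed level per CD34-positive cell ranged from 5205 to 173604 CPM, with a median of 90295 CPM. The lowest sum was that of CD34-positive cell 1. That cell was kept, and it also had the lowest CD34-positive levels of Hdc (48.4 CPM), Alox5 (139 CPM) and Alox5ap (36.7 CPM).

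1 library went against its label. CD34-negative cell 10 had a summed basophil marker level of 236 CPM, where the other 45 CD34-negative cells ranged from 8069 to 140392 CPM. In that cell Gata2 was at 3.80 CPM (lowest other CD34-negative cell 929 CPM) and Fcer1a at 7.61 CPM (lowest other cell 223 CPM). Ms4a2 was at 7.61 CPM (lowest other cell 481 CPM). Mcpt8 (45.6 CPM), Prss34 (118 CPM), Cpa3 (26.6 CPM) and Cd200r3 (26.6 CPM) were above the lowest other cell (10.6, 17.5, 2.06 and 20.6 CPM). Itga2 and Il3ra had no read in cell 10, nor in some other CD34-negative cells. It held the highest sum of the 7 monocyte and macrophage markers in its gate, 3119 CPM, with Csf1r at 966 CPM. The complement genes C1qa (1833 CPM) and C1qb (3119 CPM), chosen after their values were seen, had no read in any other CD34-negative cell. It is also the CD34-negative cell with the fewest gene reads among those kept. The gate differences below are given with this cell and, where it matters, without it.

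Of the 10 genes, 5 were found in nearly every cell, Pla2g4a in most and 4 in few. Hdc and Alox5 had reads in 91 of 92 cells, Slc18a2 and Alox5ap in 92, Alox15 in 85 and Pla2g4a in 61. Ltc4s had reads in 5 cells, Ptgs1 in 6, Hpgds in 3 and Ptgs2 in 2. All of Hdc, Slc18a2, Alox5, Alox5ap and Alox15 had a read in 45 of 46 CD34-negative cells and in 40 of 46 CD34-positive cells. Drawn to 200000 gene reads per cell, both gates had a median of 6 of the 10 genes per cell, ranging over 5 to 7 for CD34-negative and 4 to 7 for CD34-positive cells.

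**Figure D1:**
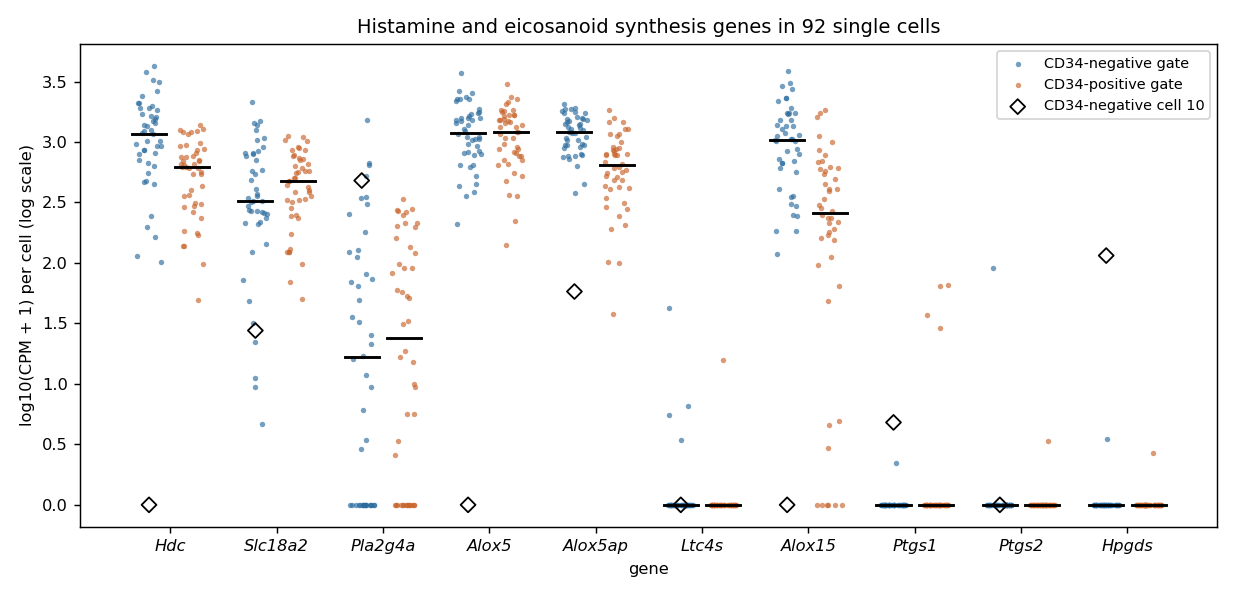
Level of each of the 10 genes in each kept cell, as log10 of CPM plus 1 on the y axis, with genes on the x axis. Points are cells (46 per gate), black bars are medians, and the open diamond is CD34-negative cell 10, which is at 0 for Hdc, Alox5 and Alox15 and high for Hpgds.

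The gates were compared by the log2 fold of summed CPM plus 1 CPM, CD34-positive over CD34-negative, with 95% intervals that cover counting error only. Of the 10 genes, 3 had a log2 fold of -1 or less (Hdc, Alox15 and Ptgs2) and 1 of 1 or more (Ptgs1). Of all 24936 genes with any read, 8.29% were at -1 or less and 15.9% at 1 or more. Ptgs2 and Ptgs1 had reads in 2 and 6 cells. Among the 6 genes read in 10 or more of the kept cells, 2 were at -1 or less and 0 at 1 or more. Of the 12460 genes that met this minimum, 10.1% were at -1 or less and 21.7% at 1 or more. The 6 genes all had folds below 0, with a median of -0.71, where all 12460 genes had a median of 0.19 and 41.1% were below 0.

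The scale of the fold depends on the reference. CD34-positive cells had a median of 14.4 gene reads per read of the ERCC spike-in RNA, and CD34-negative cells 6.87. Scaling by ERCC reads moved the median of all genes from 0.19 to 0.99. On that scale Hdc (0.15), Slc18a2 (1.03), Pla2g4a (0.72), Alox5 (0.82) and Alox5ap (0.17) had folds above 0, and Alox15 stayed below at -0.55. Set against the median of all genes, the fold of Alox15 was -1.69 with gene reads and -1.54 with ERCC reads, and that of Hdc -1.32 and -0.85. In sums over cells, fewer cells with a transcript and less transcript per cell cannot be told apart. Values per cell are given for the 10 genes, and counts of cells for most other genes named with a fold.

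**Figure D2:**
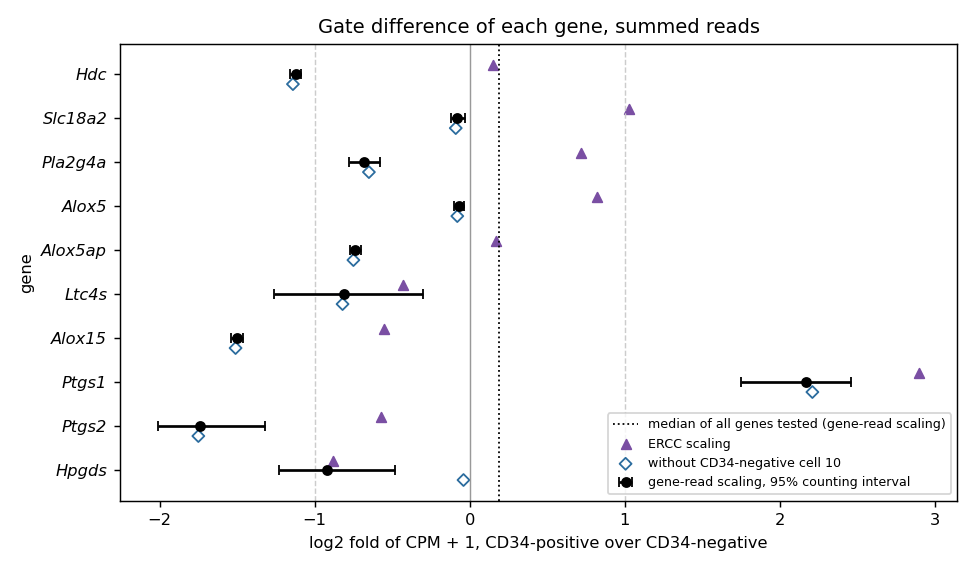
Log2 fold of CPM plus 1 between the gates on the x axis for each of the 10 genes on the y axis. Circles are summed reads with 95% counting intervals, triangles ERCC scaling, diamonds the value without CD34-negative cell 10, and the dotted line the median of all genes tested at 0.19; Hpgds moves from -0.92 to -0.04 without cell 10.

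Hdc (ENSMUSG00000027360, chr2:126593667-126619299, minus strand, GRCm38), the enzyme that makes histamine, was lower in the CD34-positive gate. CD34-negative cells had a lowest value of 0 CPM, a median of 1170 CPM and a highest value of 4256 CPM. CD34-positive cells had a lowest value of 48.4 CPM, a median of 620 CPM and a highest value of 1388 CPM. The gates overlapped: 18 of 46 CD34-negative cells were above every CD34-positive cell, and 6 of 46 CD34-positive cells were above the CD34-negative median. The only cell at 0 was cell 10, and the lowest of the other CD34-negative cells was at 101 CPM. Summed levels were 1361 and 624 CPM, a log2 fold of -1.12 (-1.16 to -1.09), and -1.14 without cell 10. The difference of the medians was smaller than the cell-to-cell SD of 963 CPM in the CD34-negative gate and larger than the SD of 363 CPM in the CD34-positive gate.

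Slc18a2 (ENSMUSG00000025094, chr19:59260896-59296012, plus strand), which loads histamine into granules, did not show the same pattern. CD34-negative cells ranged from 3.69 to 2150 CPM with a median of 325 CPM, and CD34-positive cells from 49.0 to 1115 CPM with a median of 475 CPM. The median was thus higher in the CD34-positive gate, while a few CD34-negative cells reached the highest values. The summed levels, 521 and 494 CPM, gave a log2 fold of -0.08 (-0.12 to -0.03). This sign rested on single cells: without CD34-negative cell 21, the highest for both Slc18a2 and Hdc, it was 0.04, and in the subset of cells numbered 7 to 42 in the titles it was 0.32. The fold of Hdc without cell 21 was -1.04.

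Hdc, Slc18a2 and Alox5 were read in nearly every cell, and Hdc had a lower log2 fold (-1.12) than Slc18a2 (-0.08) and Alox5 (-0.07). The sequences before the RefSeq starts of these 3 genes are shown. Each is the 250 bases before the start, 5′ to 3′ on the gene's strand, from RefSeq on GRCm38.p6, and 8 of the 10 genes had an entry. The windows are chr2:126618679-126618928 (minus strand) for Hdc, chr19:59260628-59260877 (plus strand) for Slc18a2 and chr6:116461179-116461428 (minus strand) for Alox5. The Hdc window lies inside the GENCODE span of the gene, whose start is further upstream, and holds no exon bases. Capitals mark a match to the GATA motif letters AGATAA or TGATAA on either strand.
Hdc: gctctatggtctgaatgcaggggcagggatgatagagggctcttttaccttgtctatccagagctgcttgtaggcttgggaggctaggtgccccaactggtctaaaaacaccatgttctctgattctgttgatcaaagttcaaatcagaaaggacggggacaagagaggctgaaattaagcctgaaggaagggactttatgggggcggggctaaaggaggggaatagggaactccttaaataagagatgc
Slc18a2: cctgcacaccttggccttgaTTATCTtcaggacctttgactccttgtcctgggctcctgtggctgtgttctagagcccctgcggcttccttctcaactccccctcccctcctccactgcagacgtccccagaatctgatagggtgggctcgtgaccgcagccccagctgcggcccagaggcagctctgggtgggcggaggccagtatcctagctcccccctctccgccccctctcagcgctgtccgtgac
Alox5: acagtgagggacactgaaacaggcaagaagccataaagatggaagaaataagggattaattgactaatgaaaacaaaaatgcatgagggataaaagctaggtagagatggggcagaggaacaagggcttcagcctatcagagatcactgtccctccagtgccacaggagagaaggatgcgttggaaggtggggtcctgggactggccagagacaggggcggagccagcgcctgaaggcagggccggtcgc
The Slc18a2 window held a match and the Hdc and Alox5 windows held none. Of all 32851 windows of this length, 16.6% held a match. Pla2g4a has 2 windows, of which the one at the upstream start held no match and the other, inside the gene, did. The letters of 5 motifs were searched, chosen after the data were seen. Neither AP-1 (TGANTCA), STAT (TTCNNNGAA) nor CRE (TGACGTCA) was found in any window of the 8 genes, and these are in 6.75%, 7.02% and 1.55% of all windows. RUNX (TGTGGT) was found for Ltc4s, Ptgs2 and Hpgds, and is in 14.05% of all windows. A match describes letters only.

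Pla2g4a (ENSMUSG00000056220, chr1:149829618-149961290, minus strand), the phospholipase that supplies arachidonic acid, was found in part of the cells. It had reads in 29 of 46 CD34-negative and 32 of 46 CD34-positive cells, and at 200000 gene reads in 58.7% (43.2% to 73.0%, exact binomial interval over the cells of 1 sample) and 65.2% (49.8% to 78.6%). CD34-negative cells ranged from 0 to 1516 CPM with a median of 15.6 CPM, and CD34-positive cells from 0 to 335 CPM with a median of 23.8 CPM. The gates overlapped, and 7 CD34-negative cells were above every CD34-positive cell. Summed levels were 127 and 78.8 CPM, a log2 fold of -0.68 (-0.78 to -0.58). CD34-negative cell 45 held 25.0% of the reads of its gate, and without it the fold was -0.30.

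Alox5 (ENSMUSG00000025701, chr6:116410077-116461178, minus strand), 5-lipoxygenase, was at nearly the same level in both gates. CD34-negative cells ranged from 0 to 3727 CPM with a median of 1193 CPM, and CD34-positive cells from 139 to 2999 CPM with a median of 1211 CPM. The cell at 0 was again cell 10, and the other CD34-negative cells started at 208 CPM. Summed levels of 1341 and 1278 CPM gave a log2 fold of -0.07 (-0.10 to -0.04).

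Alox5ap (ENSMUSG00000060063, chr5:149264767-149288153, plus strand) encodes FLAP, the membrane protein that presents arachidonic acid to 5-lipoxygenase. CD34-negative cells ranged from 57.0 to 2080 CPM with a median of 1213 CPM, and CD34-positive cells from 36.7 to 1821 CPM with a median of 640 CPM. Most CD34-negative cells were high: 42 of 46 were above the CD34-positive median, and 6 of 46 CD34-positive cells were above the CD34-negative median. The lowest CD34-negative value was that of cell 10, and the next was at 379 CPM. Summed levels of 1221 and 732 CPM gave a log2 fold of -0.74 (-0.77 to -0.70). With gene reads as the reference, the gate difference of Alox5ap was thus larger than that of Alox5. With ERCC scaling it was the smaller one, 0.17 for Alox5ap and 0.82 for Alox5. Of the Alox5ap exon bases 13.3% are shared with the antisense gene Gm19719, and the strand setting of the counting is not given in the sources used here.

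Ltc4s (ENSMUSG00000020377, chr11:50236461-50238616, minus strand), leukotriene C4 synthase, the enzyme that joins glutathione to leukotriene A4, was read in few cells. CD34-negative cells 5, 8, 11 and 36 had 3, 31, 2 and 5 reads, and CD34-positive cell 18 had 8 reads. The other 87 kept cells had none. Summed levels were 1.23 CPM (0.880 to 1.66) and 0.266 CPM (0.115 to 0.525). Cell 8 held 75.6% of the CD34-negative reads, and the log2 fold of -0.81 (-1.26 to -0.30) was -0.04 without it. At 200000 gene reads, the share of cells with Ltc4s was 8.70% (2.42% to 20.8%) for CD34-negative and 2.17% (0.0550% to 11.5%) for CD34-positive cells. The gene is short, and 26.4% of its exon bases are shared with the antisense gene Gm26542, and how reads in the shared bases were counted is not given in the sources used here.

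Alox15 (ENSMUSG00000018924, chr11:70344152-70352031, minus strand), the leukocyte 12/15-lipoxygenase, had the lowest fold of the 6 of the 10 genes read in at least 10 cells. CD34-negative cells had a lowest value of 0 CPM, a median of 1046 CPM and a highest value of 3841 CPM. CD34-positive cells had a lowest value of 0 CPM, a median of 260 CPM and a highest value of 1836 CPM. The gates overlapped, with 40 of 46 CD34-negative cells above the CD34-positive median and 4 of 46 CD34-positive cells above the CD34-negative median. Summed levels of 1213 and 429 CPM gave a log2 fold of -1.5 (-1.54 to -1.46), and -1.51 without cell 10. The difference of the medians was smaller than the SD of 863 CPM over CD34-negative cells and larger than the SD of 451 CPM over CD34-positive cells.

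At the low end the gates also differed in count. Among CD34-negative cells only cell 10 was below 50 CPM of Alox15, and the next lowest cell was at 118 CPM. Of the CD34-positive cells 10 were below 50 CPM, and 6 of these (cells 1, 6, 35, 38, 40 and 41) had no read. At 200000 gene reads the share of cells with Alox15 was 97.8% (88.5% to 99.9%) for CD34-negative and 84.8% (71.1% to 93.7%) for CD34-positive cells. All 46 CD34-positive cells had Alox5 reads, the 6 without Alox15 included.

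The balance of the 2 lipoxygenases was compared per kilobase of exon. Alox15 made up a median of 58.8% of the Alox15 plus Alox5 level in CD34-negative cells (range 10.4% to 90.0%, 45 cells with either gene) and 26.99% in CD34-positive cells (range 0% to 85.0%, 46 cells). It was above 50% in 32 CD34-negative and 9 CD34-positive cells.

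**Figure D3:**
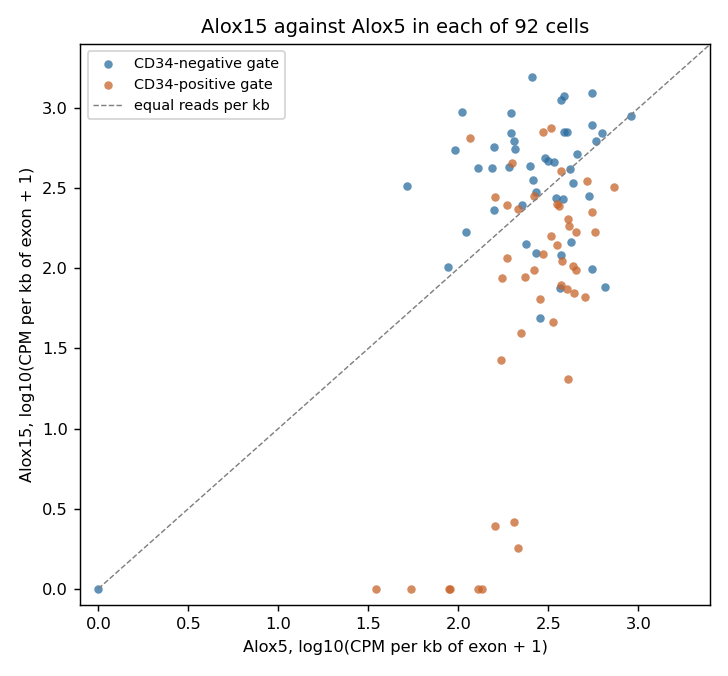
Alox15 on the y axis against Alox5 on the x axis in each kept cell, both as log10 of CPM per kb of exon plus 1, with 46 points per gate. The dashed line marks equal levels; 32 CD34-negative and 9 CD34-positive cells lie above it, and the 6 CD34-positive cells at 0 for Alox15 had Alox5 reads.

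Of the cyclooxygenases, Ptgs1 (ENSMUSG00000047250, chr2:36230426-36252272, plus strand), the constitutive form, had 1 read each in CD34-negative cells 10 and 14. In the CD34-positive gate cells 6, 26, 31 and 41 had 28, 11, 55 and 19 reads. The other 42 CD34-positive cells had none. With 2 against 113 reads, the CD34-positive level was 62.9 times as high, with a counting interval of 14.4 to 625. Without cell 10, 1 CD34-negative read was left and the ratio was 125 (18.5 to 5929). The log2 fold with 1 CPM added was 2.17 (1.75 to 2.46), and 1.5 without cell 31. At 200000 gene reads the shares were 4.35% (0.531% to 14.8%) and 8.70% (2.42% to 20.8%) of cells.

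Ptgs2 (ENSMUSG00000032487, chr1:150100031-150108227, plus strand), the inducible cyclooxygenase, had 82 reads in CD34-negative cell 42 and 1 read in CD34-positive cell 36. The log2 fold of -1.74 (-2.01 to -1.32) thus compares single cells, and it was 0.05 without cell 42. Its neighbour on chromosome 1 in this gene set, Pla2g4a, had reads in 61 cells.

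Hpgds (ENSMUSG00000029919, chr6:65117293-65144908, minus strand), the haematopoietic prostaglandin D2 synthase, had 30 reads in CD34-negative cell 10, 2 in CD34-negative cell 17 and 1 in CD34-positive cell 7. Cell 10 thus held 93.8% of the reads of its gate, at 114 CPM. The log2 fold was -0.92 (-1.23 to -0.48) with cell 10 and -0.04 without it. The same cell held 99.2% of the CD34-negative reads of Hpgd, which breaks prostaglandins down, and 33.98% of those of Tbxas1, thromboxane synthase. It held 75.8% of those of Csf1r, a macrophage gene. Without cell 10, Hpgds had 2 reads in 1 of 45 CD34-negative cells.

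Levels of different genes were compared per kilobase of exon, as summed CPM per kb. In the CD34-negative gate the order was Alox5ap (860), Alox15 (494), Alox5 (327), Hdc (213), Slc18a2 (99.8) and Pla2g4a (19.9). In the CD34-positive gate it was Alox5ap (516), Alox5 (311), Alox15 (175), Hdc (97.7), Slc18a2 (94.6) and Pla2g4a (12.3). The order was the same but for Alox15 and Alox5, which stood the other way round. Neighbours in these orders had overlapping quartile ranges over cells, except Slc18a2 and Pla2g4a, which did not overlap in either gate. Ltc4s, Ptgs1, Ptgs2 and Hpgds were at 1.21 CPM per kb or less in both gates.

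Among cells of a gate, the 6 common genes were mostly weakly related. Spearman correlations of CPM are given as descriptions over 46 cells per gate, which share mice, plate and the CPM denominator. In the CD34-positive gate Alox5ap went with Alox15 (rho 0.55), Alox5 (0.40) and the receptor gene Fcer1a (0.64). In the CD34-negative gate these were 0.18, 0.04 and -0.09, and 0.12, -0.02 and -0.17 without cell 10. Hdc and Slc18a2, the histamine pair, had a rho of 0.32 over CD34-positive and -0.00068 over CD34-negative cells. Slc18a2 was lower where the protease gene Mcpt8 was higher in the CD34-positive gate (-0.53), with -0.05 in the CD34-negative gate.

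A search over 9210 genes, each read in 23 or more of the kept cells, ranked genes by the smaller of the 2 within-gate rho values. The genes most like Alox5 were Prss34 (0.46 for CD34-negative, 0.55 for CD34-positive), Cpa3 (0.40 and 0.44) and Fcer1a (0.41 and 0.39), which are 3 of the 9 basophil markers. By this ranking, likeness in both gates is set by the choice of genes. Of other basophil markers, Alox5 had a rho of 0.46 and 0.36 with Mcpt8, 0.16 and 0.26 with Gata2, and -0.00093 and 0.44 with Cd200r3. For Hdc they were Slfn2, Rasa3 and Rhof, with smaller values of 0.41, 0.40 and 0.36. For Alox5ap they were Slc41a3 (0.42), Cdipt (0.37) and Vcl (0.35), and for Alox15 Sytl3 (0.41), Hip1r (0.39) and Hacd4 (0.38). For Slc18a2 they were Snapc3 (0.43), Rnf103 (0.39) and Gclm (0.35), and for Pla2g4a Tsta3 (0.37), Mpp7 (0.31) and Srrt (0.31). Alox5 had a rho with gene reads per cell of 0.15 and 0.29, and with gene reads per ERCC read of 0.28 and 0.21.

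The other genes of the 2 pathways were taken from a list of 62. Of these, 30 had reads in at least 10 kept cells, 6 of them with a log2 fold of -1 or less and 8 with 1 or more, beside the 10.1% and 21.7% of all genes. Another 21 had reads in fewer cells and 11 had none. A gene with no read in a gate may still be present at up to the level of 3 reads, the one-sided 95% limit that a count of 0 allows, 0.0897 CPM for CD34-negative and 0.0999 CPM for CD34-positive cells.

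Of 3 genes for transport across the cell membrane or breakdown of histamine, 2 had reads in at least 10 cells. Both were at 1 or more, as were 21.7% of all genes with this minimum. Slc22a3, an organic cation transporter that carries histamine, was at 53.9 CPM and 207 CPM (here and below the CD34-negative value comes first), a log2 fold of 1.92 (1.82 to 2.02). It had reads in 18 of 46 and 43 of 46 cells, with medians of 0 and 181 CPM. Of its exon bases 9.31% are shared with Plg on the opposite strand. Hnmt, histamine N-methyltransferase, was at 1.79 and 27.5 CPM, a log2 fold of 3.35 (3.01 to 3.69), with reads in 3 and 15 cells. CD34-negative cell 37 held 70.0% of its reads in that gate, and without it the fold was 4.20. Leaving out CD34-positive cell 31 instead gave 3.13. Aoc1, diamine oxidase, had 0 and 23 reads, 87.0% of them in CD34-positive cell 1. With ERCC scaling the folds of Slc22a3 and Hnmt were 2.67 and 3.69.

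The 2 histamine receptors found in at least 10 cells were lower in the CD34-positive gate. Hrh4 was at 143 and 39.9 CPM, a log2 fold of -1.81 (-1.94 to -1.69), with reads in 36 and 22 cells. Hrh2 was at 52.9 and 19.3 CPM, a log2 fold of -1.41, with reads in 17 and 16 cells. On the ERCC scale these were -0.69 and -0.37. CD34-positive cell 37 held 38.1% of the Hrh4 reads and cell 32 held 42.7% of the Hrh2 reads of that gate. Without these cells the folds were -2.45 and -2.13. In the other direction, Hrh4 was at -1.7 without CD34-negative cell 42 and Hrh2 at -1.09 without CD34-negative cell 33. Hrh1 had no read and Hrh3 had 2.

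Downstream of 5-lipoxygenase, Lta4h, which makes leukotriene B4, was at 73.1 and 146 CPM, a log2 fold of 0.99 (0.89 to 1.09), with medians of 8.41 and 123 CPM. CD34-negative cell 17 held 29.5% of its reads in that gate, and without it the fold was 1.45. Leaving out CD34-positive cell 15 instead gave 0.87. Lta4h was found in 30 and 42 cells, and Ltc4s in 4 and 1. Mgst3, a microsomal glutathione transferase, was at 6.85 and 20.8 CPM (log2 fold 1.48), with reads in 4 and 18 cells. CD34-negative cell 18 held 52.8% of its reads in that gate, and without it the fold was 2.34. Leaving out CD34-positive cell 1 instead gave 1.18. Mgst2 had reads in 2 and 5 cells. Abcc1, the transporter that exports leukotriene C4, was at 301 and 237 CPM (log2 fold -0.35, and 0.53 with ERCC scaling), with reads in 44 and 42 cells. Abcc4, another exporter, had a fold of 0.18 (-0.03 with TMM factors and 1.35 with ERCC scaling), with reads in 32 and 42 cells. Of the receptors, Ltb4r1 was at 102 and 137 CPM (0.42, and 1.45 with ERCC scaling), with reads in 26 and 39 cells. Ltb4r2 was at 0.299 and 11.3 CPM (3.25), with reads in 2 and 15 cells, and Cysltr1 had no read.

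Of the other lipoxygenases, Alox8 was lower and Alox12e higher in the CD34-positive gate. Alox8 was at 180 and 51.6 CPM, a log2 fold of -1.78 (-1.89 to -1.67), with reads in 39 and 22 cells. Alox12e was at 41.3 and 176 CPM, a log2 fold of 2.06 (1.95 to 2.18), with reads in 15 and 33 cells. Alox12e (chr11:70315610-70322628) lies close to Alox15 on chromosome 11 and had a fold of the opposite sign. With ERCC scaling the folds were -0.80 and 1.94. Alox12, Alox12b and Aloxe3 had no read.

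Of 9 prostanoid synthases, 6 had reads in at least 10 cells, 3 of them at 1 or more and 0 at -1 or less. Among all 12460 genes with this minimum, the shares were 21.7% and 10.1%. Tbxas1 was at 27.5 and 97.0 CPM, a log2 fold of 1.78 with CD34-negative cell 10 and 2.34 without it, and had reads in 12 and 34 cells. It was 0.99 with scran size factors. Akr1b3, an aldose reductase that can make prostaglandin F2α, was at 4.13 and 27.5 CPM (2.48), with reads in 10 and 34 cells. Ptges, the inducible prostaglandin E synthase, was at 17.9 and 47.1 CPM (1.35), but CD34-positive cell 22 held 47.4% of its reads and the fold was 0.48 without it. It had reads in 11 and 21 cells. Ptges2, Cbr1 and Ptges3 had folds of -0.22, -0.08 and 0.40. Ptges2 was at 0.31 without CD34-negative cell 35 and Cbr1 at 0.53 without CD34-negative cell 12.

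Of 9 prostanoid receptors, 4 had reads in at least 10 cells, 1 of them at -1 or less and 0 at 1 or more. Among all 12460 genes with this minimum, the shares were 10.1% and 21.7%. Ptger4, a receptor of prostaglandin E2, was at 81.2 and 20.5 CPM, a log2 fold of -1.93 (-2.10 to -1.77), and -1.17 with ERCC scaling, with reads in 24 and 13 cells. Of its exon bases 16.5% are shared with genes on the opposite strand. Ptger3 and Ptgir had folds of -0.95 and -0.83, and -0.24 and 0.13 with ERCC scaling. They had reads in 35 and 37, and 19 and 19 cells. Ptger1, read in 41 and 42 cells, had a fold of -0.29, which was 0.39 without CD34-negative cell 18 and 0.93 with ERCC scaling, and its reads are uncertain because the strand setting is not given. Leaving out 1 of CD34-positive cells 16, 23 or 43 took Ptger3 past -1, and 1 of 16, 28 or 46 took Ptgir past it. Ptgdr, a receptor of prostaglandin D2, had no read. Of the other phospholipases A2, Plaat3 (-1.48) and Pla2g15 (-1.42) were lower, with reads in 11 and 13 cells and in 19 and 22 cells. CD34-positive cell 1 held 44.97% of the Plaat3 reads of its gate, and without it the fold was -2.23. Leaving out CD34-negative cell 30 instead gave -1.07. Pla2g15 was at -0.93 without CD34-negative cell 45 and at 0.18 with ERCC scaling. Pla2g6 had a fold of 0.29, and 1.02 without CD34-negative cell 2. The 4 genes of fatty acid re-acylation, Acsl4, Lpcat2, Lpcat3 and Mboat7, had folds of -0.90 to 0.12, and all 4 were above 0 with ERCC scaling.

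**Figure D4:**
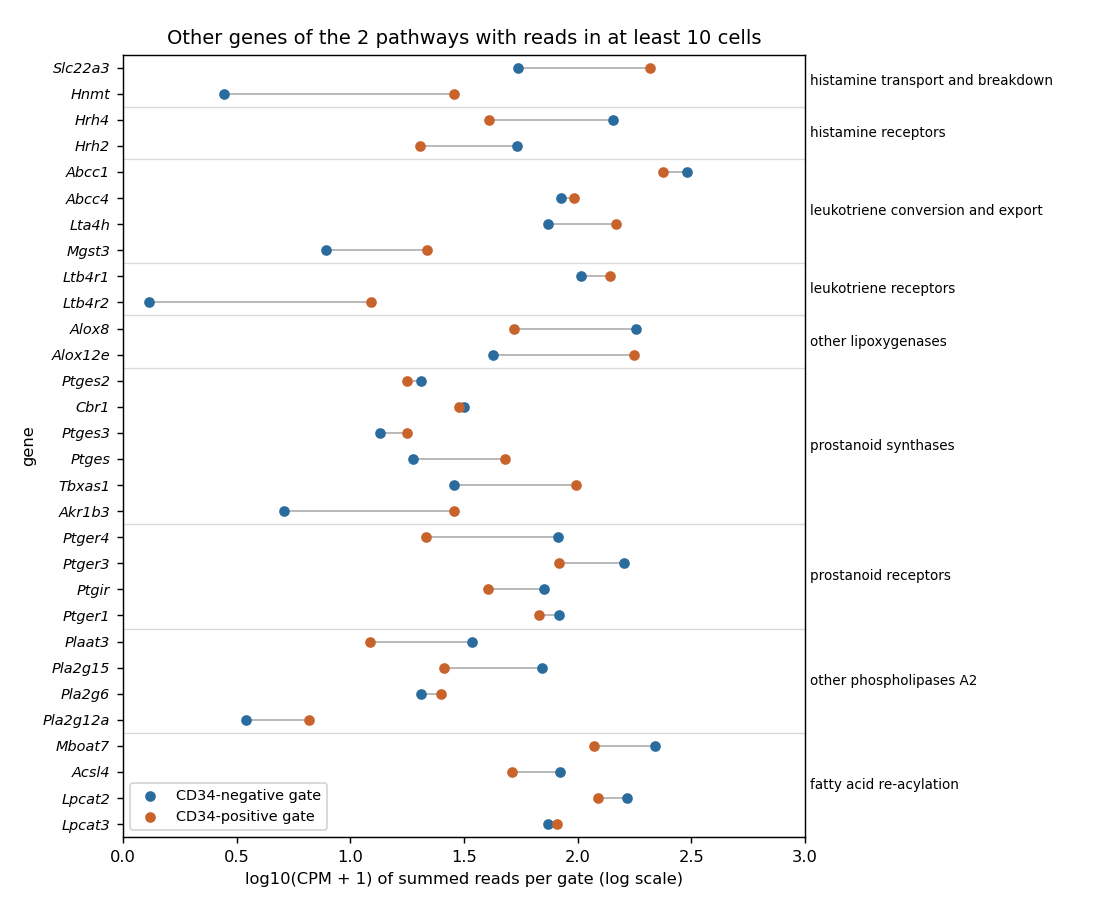
Summed level in each gate, as log10 of CPM plus 1 on the x axis, for the 30 other pathway genes read in 10 or more kept cells on the y axis, grouped by role. Points joined by a line are the 2 gates; Hrh4, Alox8 and Ptger4 lie to the left in the CD34-positive gate, and Hnmt, Slc22a3, Ltb4r2 and Akr1b3 to the right.

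Markers of other blood and marrow cells were read unevenly, Itga2b in nearly all cells and the others in part of the cells or in none. Of 8 mast cell markers, 1 had reads among CD34-negative and 4 among CD34-positive cells, the summed level per cell reached 1.43 and 285 CPM, and Mcpt1, Mcpt2, Mrgprb1 and Mrgprb2 had no read. Of 8 eosinophil markers 4 and 6 had reads, and the sum reached 1099 CPM in CD34-negative cell 5 and 1496 CPM in CD34-positive cell 34. The median of this sum went the other way, 55.1 CPM over CD34-negative and 2.33 CPM over CD34-positive cells, and Ccr3 was at 97.9 and 4.70 CPM. Ear1 and Ear6 had no read. The sum of the 7 monocyte and macrophage markers had a median of 295 CPM over CD34-negative and 26.6 CPM over CD34-positive cells, and Ccr2, one of them, was at 493 and 40.5 CPM, with reads in 41 and 15 cells. Of 6 platelet markers, Pf4 and Ppbp had no read and Itga2b was at 1444 and 930 CPM, with reads in 46 and 45 cells. The summed levels of 8 neutrophil markers reached 235 and 472 CPM, mostly Lcn2, those of 5 B cell markers 434 and 424 CPM, those of 5 T and NK cell markers 1.63 and 0 CPM, and those of 6 erythroid markers 83.6 and 273 CPM. The part of other cells in the gate differences was not tested, beyond the values without cell 10.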

How the data were processed

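RNA of single cells was made into cDNA from polyadenylated transcripts with ERCC spike-ins and 19 PCR cycles, per the labels' protocols. The authors deposited 1 table of raw counts, whole reads per gene and cell. Reads were aligned with GSNAP and counted with HTSeq 0.5.3p3 on mm10, per the submitters' processing notes. The annotation release and strand setting are not given in the sources used here. Of all reads, 32.4% were counted to genes, 3.97% to ERCC, 7.68% were ambiguous, 33.0% lay outside genes and 22.9% were not aligned. Only gene reads entered library sizes. Symbols were matched by identifier for 45143 of 46078 genes. The 935 others held 0.281% of gene reads.

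A cell was used if it had 50000 gene reads or more, 1000 genes or more, under 20% mitochondrial and under 50% ERCC reads, which left 92 of 94. Reads were summed per gate and scaled to CPM, with a pseudocount of 1 CPM. Poisson and binomial (Clopper-Pearson) intervals are exact, at 95%. Reads carry no molecular identifiers, so Poisson intervals cover counting error only. Binomial intervals cover the counting of cells within 1 sample, not differences between mice, and compare no gates. A fold interval pairs opposite bounds of the levels of both gates. Exon lengths, overlaps and positions are from GENCODE M21 (GRCm38). All 10 genes are named. Some marker genes are not reported here. Other pathway genes could be named at 10 CPM or more in a gate and reads in at least 10 kept cells, with values for those past a log2 fold of 1. Other values and names were chosen after the data were seen. The genes, lists, motif letters and alternatives were chosen with earlier results of these data known. The fold calculation was tested on simulated data. Alternatives were other scalings (scran, TMM, ERCC), pseudocounts, filters and subsets of cells. Size factors came from scran 1.30.0 and, for TMM alone, edgeR 4.0.16 under R 4.3.3. All else ran in Python 3.11.15 with pandas 2.3.3, scipy 1.17.1, numpy 2.4.6 and, for plots, matplotlib 3.10.9.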

Additional observations from a re-analysis of the deposited data

Results flagged for a closer look

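The 2 cells left out of the comparisons for their few gene reads still had reads of these genes, above the limit of 3 reads. CD34-positive cell 3, with 31504 gene reads, had 36 reads of Alox5ap, 27 of Alox5, 19 of Hdc, 19 of Alox15, 17 of Slc18a2 and 4 of Pla2g4a. As CPM these were 1143, 857, 603, 603, 540 and 127, each within the range of the kept CD34-positive cells. CD34-negative cell 20, with 24565 gene reads, had 11 reads of Alox5 and 10 of Alox5ap, or 448 and 407 CPM, and no read of Hdc, Slc18a2 or Alox15.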

How the results depend on the processing

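No paired analysis was possible because title numbers name single cells, not animals, and nothing was tested. The values without CD34-negative cell 10, alone or with cells 25 and 36, whose levels of the progenitor gene Mpo were 1655 and 2114 CPM against a median of 1.28 CPM, were added after the data were seen. For what follows, the cause was not tested. Medians are over the 6 genes read in at least 10 cells, unless another filter is named. ERCC scaling lowered the count of the 10 genes at -1 or less from 3 to 0, raised the count at 1 or more from 1 to 2 and turned the median of the 6 from -0.71 to 0.45. It turned the folds of Hdc (0.15), Slc18a2 (1.03), Pla2g4a (0.72), Alox5 (0.82) and Alox5ap (0.17), and changed the pathway counts from 6 lower and 8 higher to 2 and 14. With scran they were 9 and 7, and with TMM 9 and 8. The median of all genes moved as well, from 0.19 to 0.99 with ERCC, 0 with scran and 0.02 with TMM. The share of all genes past the threshold on these scales is not given, so these counts do not set the listed genes apart from a shift of all genes. With scran size factors 5 of the 10 were at -1 or less, and the median of the 6 was -1.0. With TMM factors it was -0.92. A pseudocount of 0.1 CPM gave 5 at -1 or less, and one of 10 CPM gave 0 at 1 or more. The median was -0.60 when each gene lost its top cell of either gate, -0.61 in cells numbered 7 to 42 and -0.78 over all 10 genes, with no filter on low genes. That filter change gave 13 higher pathway genes, and reads in at least 23 cells gave 5. That minimum drops Ptgs1, whose fold is the same, so the count at 1 or more was 0. Leaving out each cell in turn gave medians of -0.79 to -0.51. The fold of Slc18a2 turned to 0.32 in cells numbered 7 to 42 and to 0.04 without CD34-negative cell 21 (leaving out each cell in turn gave -0.12 to 0.04), and that of Ptgs2 to 0.05 without CD34-negative cell 42 (-1.79 to 0.05). Of 170 alternative folds of the 10 genes, 110 stayed within the counting interval, 52 left it and 8 changed sign. Alox15 was below 0 in all 17 alternatives run for it, from -1.71 to -0.55. Ltc4s, Ptgs1, Ptgs2 and Hpgds have 1 to 113 reads per gate, and their counting intervals are the widest of the 10 genes.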

Other observations

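Several pathway genes outside the comparisons were read in few cells, and they were picked after their values were seen. Ptgds, the lipocalin-type prostaglandin D2 synthase, had all of its 131 reads in CD34-positive cell 14, at 236 CPM. Ptgdr2, a receptor of prostaglandin D2, had all of its 47 reads in CD34-positive cell 42, at 92.3 CPM. Of its exon bases 38.99% are shared with Ccdc86 on the opposite strand, and the strand setting of the counting is not given in the sources used here. Ptgfr, the receptor of prostaglandin F2α, had 675 reads in 5 CD34-negative cells, 77.5% of them in cell 43, at 998 CPM, and 2 reads in the CD34-positive gate. Pla2g4c, a phospholipase A2, had 151 reads in 8 CD34-positive cells and 0 in the CD34-negative gate. Mgst1, a microsomal glutathione transferase, had 106 reads in 4 CD34-positive cells and 0 in the CD34-negative gate.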
